A study of Mus musculus with 79 samples.

Results

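Cytochrome P450 enzymes are heme proteins that insert 1 oxygen atom into their substrates. Each gene symbol names the enzyme by family number, subfamily letter and member number. Members were taken here as every symbol of that form in any of the 5 deposited count tables, apart from Cyp7a1, Cyp7b1, Cyp8b1 and Cyp27a1, the main enzymes of bile acid synthesis. The rule used names and no expression value. It gave 65 of 15198 listed symbols, in 26 subfamilies. Listed symbols of another form, among them Cyp4a12a, Cyp4a12b, Cyp51 and Cyp2ab1, were not taken. No P450 share or subfamily sum below includes them. Family 2 held 37 members, family 4 held 12, family 3 held 4, family 1 held 3 and family 26 held 2, and families 11, 17, 21, 24, 27, 39 and 46 held 1 each.

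Microsomal P450s receive their electrons from NADPH through the reductase Por, and mitochondrial ones through ferredoxin. Families 1 to 3 clear drugs, steroids and plant compounds in the liver, where the receptors AhR, CAR (Nr1i3) and PXR (Nr1i2) induce families 1, 2b and 3a. Family 4 oxidises fatty acids and related lipids, with subfamily 4a under the control of PPARα. The remaining families act on substrates such as sterols, steroids, retinoic acid and vitamin D. The reaction consumes molecular oxygen, and several hepatic P450 genes follow the daily clock.

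The study exposed C57BL/6 mice aged 3 months for 4 h to 6% oxygen, or to synthetic air with 21% oxygen, and sequenced RNA from whole tissue. Wild-type (WT) mice held on a light-dark cycle (LD) breathed the gas during zeitgeber time (ZT) 4 to 8, in the light phase, or ZT16-20, in the dark phase, and gave liver, kidney and lung. After 2 days in constant darkness (DD), WT mice and mice labelled as Per1,2 double knock-outs (KO), which lack a pair of clock repressors, were exposed during circadian time (CT) 4-8 or CT16-20 and gave liver. The 79 libraries fell into 20 groups of 4 separate mice, except KO at CT16-20 in 6% oxygen with 3, and 27 comparisons were made. Every knockout mouse was also in darkness, and genotype coincides with the count table, so genotype and table cannot be told apart. The labels do not give the deleted exons, the breeding of the WT controls or the sex of the mice.

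Total counts per library ran from 1443279 to 6744476, with a median of 3016455. Differences below are in log2 ± SE, each adjusted p is by edgeR's quasi-likelihood method with Benjamini-Hochberg correction for all genes tested, and a gene is written as having risen or fallen where that p was under 0.05. Levels are CPM, a gene's share of the library's counts times 1e6, on library totals scaled by TMM, given for libraries A, B, C and D of a group in that order. Counts are not per length, so CPM levels are not compared between genes. Shares of the members' counts, given below by tissue, rank genes by counts alone. On principal components, 1 WT air library in darkness (CT4-8 A), 3 lung air libraries (ZT4-8 B and C, ZT16-20 D) and 2 kidney air libraries (ZT4-8 B and D) stood apart from their groups. In air, Per1 and Per2 did not separate the genotype labels, with Per1 at 28.8 ± 6.80 CPM in libraries labelled KO and 26.0 ± 10.8 in WT at CT4-8, and Per2 at 8.38 ± 3.15 and 8.16 ± 2.00 (SD, n = 4). At CT16-20 both were lower in KO on average, with overlapping ranges. Per1 stood there at 28.9 ± 5.67 CPM in KO and 42.3 ± 9.37 in WT, and Per2 at 7.42 ± 2.98 and 13.2 ± 3.25. At 6% oxygen Per1 was lower in every KO library, at 15.0 to 31.5 CPM against 45.3 to 84.7 in WT, but Per2 was higher in every KO library at CT4-8, at 19.1 to 31.2 CPM against 2.94 to 10.8, and overlapped at CT16-20. Counts from outside a deletion would check nothing. Summed hepatocyte markers (5 of 6 listed, without Tf) separated the tissues, with at least 91014 CPM in LD liver and at most 707 in kidney and 188 in lung. In whole tissue, fewer cells of a type and less RNA per cell cannot be told apart.

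Reads were counted per symbol, and close copies share sequence. Of 63 members with a GENCODE vM21 transcript, 36 shared at least one 50-base word in their last 500 bases with another gene, and 21 shared over 10% of such words. Cyp2c40 shared 60.7%, Cyp4a32 58.6%, Cyp2c67 and Cyp2c68 51.2% each, Cyp2a5 44.4%, Cyp2d9 29.1%, Cyp3a25 22.9% and Cyp4a31 15.5%, so their values are uncertain. Cyp26a1, Cyp24a1, Cyp1b1 and Cyp4a14 shared none. Cyp2d13 and Cyp2c44 had no such transcript, so their sharing was not assessed. The genes lie in clusters on mm10, with 12 members each on chromosomes 7 and 19, 11 on chromosome 4, 8 on chromosome 17 and 7 on chromosome 15. Another gene overlapped 19 members, on the opposite strand for 9 of them, among them Cyp24a1 (Pfdn4) and Cyp2f2 (Gm15883), and the strand setting of the counting is not given in the sources used here.

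The first comparison was between tissues in air. The members together took 2.16 ± 0.217% of all liver counts at ZT4-8 (SD, n = 4), 1.16 ± 0.0958% of kidney counts and 0.977 ± 0.0613% of lung counts. At ZT16-20 the shares were 2.57 ± 0.159%, 0.990 ± 0.112% and 1.03 ± 0.0299%, so liver was highest at both times, and kidney and lung overlapped at ZT16-20. In liver the counts of the members were spread over many enzymes. Cyp2e1, which oxidises ethanol and small solvents, made up 24.0 ± 2.71% of them (SD, n = 8), followed by Cyp2d9 at 14.9 ± 1.42%, Cyp2f2 at 9.62 ± 2.16% and Cyp2c29 at 9.41 ± 1.70%. In kidney a single enzyme of fatty acid and arylamine oxidation, Cyp4b1, held 57.3 ± 5.92%, and in lung Cyp2f2, which activates naphthalene in club cells, held 76.2 ± 1.70% with Cyp4b1 at 14.9 ± 0.954%. Of the 65 members, 23 were listed in all 3 tissues and 22 in liver alone. Those found in liver alone included all 4 of family 3, Cyp26a1, Cyp2b9 and 8 members of Cyp2c. Kidney alone listed Cyp24a1, Cyp27b1, Cyp2j11 and Cyp2j13, and lung alone listed Cyp11a1. Liver and kidney shared 9, liver and lung 3 (Cyp2a12, Cyp2c29 and Cyp4f39), kidney and lung Cyp1b1 and Cyp2s1, and Cyp2b13 was listed in no LD tissue. Every listed gene reached a count of at least 6 in some library of its table. An unlisted gene may have had low counts there and is not shown to be absent.

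The 23 shared members were fitted together over all light-dark libraries and compared over the 8 air libraries of each tissue. Cyp4b1 had its lowest, median and highest library at 26.0, 50.6 and 80.8 CPM in liver, 3906, 5636 and 7756 in kidney and 964, 1068 and 1184 in lung. The ranges did not overlap, and the order was kidney, lung, liver (6.82 ± 0.13, adjusted p = 1.0e-41, for kidney minus liver). Cyp2f2 stood at 2426, 4327 and 4968 CPM in liver, 4.43, 5.85 and 9.15 in kidney and 5132, 5486 and 5819.9 in lung. It was nearly missing from kidney and higher in lung than in liver, without overlap (0.49 ± 0.11, adjusted p = 0.00014). Cyp2e1 fell from 7692, 10127 and 11748 CPM in liver through 689, 1037 and 1285 in kidney to 14.3, 22.2 and 48.5 in lung (-3.29 ± 0.18 for kidney minus liver and -8.59 ± 0.24 for lung minus liver). Cyp2b10, the main target of CAR, had its highest level in lung, at 150.0, 181 and 244 CPM against 3.05, 15.1 and 40.9 in liver and 0, 0.649 and 1.13 in kidney. Cyp1a1, the AhR target that oxidises polycyclic hydrocarbons, stood at 11.8, 15.0 and 122 CPM in lung and 0.761, 1.60 and 3.71 in liver, with 1 lung library well above the other 7.

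Of the 23 tested, 1 was higher and 18 lower in kidney than in liver, where 66.3% of all genes were called (33.6% higher and 32.7% lower). Lung was higher than liver for 6 and lower for 16 (all genes 79%, 40.6% higher and 38.4% lower), and higher than kidney for 9 and lower for 11 (all genes 75.9%, 38.8% higher and 37.1% lower). Most called members were lower in kidney and in lung than in liver: the median log2 difference was -3.23 for kidney minus liver and -3.13 for lung minus liver, against 0.01 and 0.05 over all genes. The deepest differences between kidney and liver were Cyp2d10 (-13.54 ± 0.27), Cyp2f2 (-9.22 ± 0.17), Cyp4f14 (-7.64 ± 0.19), Cyp4f15 (-7.20 ± 0.21), Cyp4v3 (-7.01 ± 0.21) and Cyp2b10 (-4.38 ± 0.43), of which Cyp4f14 hydroxylates leukotrienes. Cyp2d10 averaged only 0.0566 CPM in kidney at ZT4-8 and 0.306 CPM at ZT16-20, so the size of its difference is uncertain. The Cyp2d sum differed by -3.96 for kidney minus liver. Besides Cyp4b1, Cyp2b10 and Cyp2f2, lung exceeded liver for Cyp1a1 (3.90 ± 0.54), Cyp4f18 (2.82 ± 0.23) and Cyp4f16 (2.15 ± 0.22). It fell below liver by the most for Cyp2d9 (-12.50 ± 0.26), Cyp2d26 (-12.40 ± 0.25), Cyp2d10 (-12.15 ± 0.24), Cyp4f14 (-11.28 ± 0.25) and Cyp2c44 (-10.03 ± 0.25). In lung these members had group means of only 0.148 to 1.64 CPM, so the sizes of these differences are uncertain too. The Cyp2d sum differed by -8.56 for lung minus liver.

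Between the other pair, lung exceeded kidney most for Cyp2f2 (9.72 ± 0.17), Cyp2b10 (8.12 ± 0.33), Cyp1a1 (3.48 ± 0.47), Cyp4f18 (3.13 ± 0.22), Cyp4f15 (2.70 ± 0.24) and Cyp39a1 (2.31 ± 0.27). It stayed below kidney most for Cyp2d26 (-9.17 ± 0.25), Cyp2d9 (-8.62 ± 0.24), Cyp2c44 (-5.94 ± 0.26), Cyp2e1 (-5.30 ± 0.21), Cyp4f14 (-3.64 ± 0.36) and Cyp4b1 (-2.34 ± 0.11). For Cyp2d26, Cyp2d9, Cyp2c44 and Cyp4f14 the size is again uncertain because of their low lung counts, and for Cyp2b10 because of its low kidney counts. The tissues differ so widely that the scaling matters: with library totals alone, all genes shifted by 0.99 for kidney minus liver, 1.35 for lung minus liver and 0.36 for lung minus kidney, and members higher and lower became 4 and 17, 8 and 13, and 10 and 10. The sign of Cyp2j9 for kidney minus liver then turned from -0.58 to 0.40 and that of Cyp39a1, an oxysterol hydroxylase, for lung minus liver from -0.67 to 0.65.

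**Figure D1:**
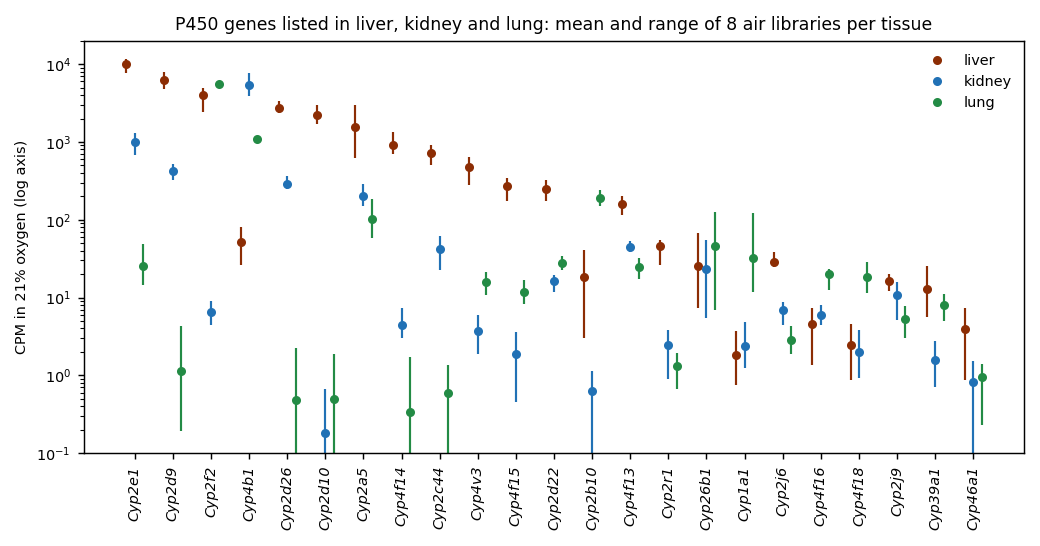
Levels of shared P450 genes in air by tissue, in CPM on a log axis, as the mean (point) and range (line) of 8 libraries per tissue. Cyp4b1 separates kidney, lung and liver in that order, and Cyp2f2 is lowest in kidney, with 6.54 CPM on average.

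The main question of the light-dark experiment concerned the response of each tissue to 4 h at 6% oxygen at each time of day. In liver at ZT4-8, Cyp26a1 rose and Cyp4a31, Cyp4a32 and Cyp2a5 fell, 1 higher and 3 lower of 46 members tested, where 9.64% of all genes were called (5.43% higher and 4.21% lower). The share of members called is near that background. Cyp26a1 clears retinoic acid and is itself induced by retinoic acid receptors. It lies at chr19:37697798-37701536, plus strand (mm10). Its promoter is shown because it holds a pair of retinoid receptor motifs, and because Cyp26a1 rose in both phases. The sequence is RefSeq's for GRCm38.p6, chr19:37697558-37697857, plus strand, from 250 bases before to 50 after the start. Capitals mark TGAAC, which is GTTCA read on the opposite strand, at -32 and -21, and the hypoxia core ACGTG at +5.

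Cyp26a1: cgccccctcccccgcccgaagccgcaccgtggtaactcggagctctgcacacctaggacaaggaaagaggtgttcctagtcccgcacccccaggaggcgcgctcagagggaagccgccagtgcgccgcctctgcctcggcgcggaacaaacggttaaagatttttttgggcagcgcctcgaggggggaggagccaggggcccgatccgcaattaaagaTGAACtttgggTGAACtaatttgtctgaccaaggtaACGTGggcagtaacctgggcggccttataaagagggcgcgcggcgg

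Of 65 members, 52 had such a promoter, and each motif was searched on both strands. A member with several promoters counted if any held the motif, whereas the background counted each promoter, so the percentages are unlike measures. GTTCA was in 22 of the 52 (42.3%, against 35.2% of 32851 promoters) and ACGTG in 5 (9.62% against 19.6%), and the paired form, GTTCA repeated in the same direction after 6 free bases, which overlaps the single form, was in Cyp26a1 alone among them and in 0.0761% of all promoters. The E-box CACGTG, which contains ACGTG, was in 2 members (3.85% against 7.15%) and the D-box TTANNTAA in 2 (3.85% against 6%). The dioxin core GCGTG was in 12 (23.1% against 32.4%). A match describes the letters in this window and shows no binding.

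In the liver libraries at ZT4-8, Cyp26a1 stood at 51.6, 47.1, 52.9 and 34.0 CPM at 6% oxygen and at 12.3, 4.13, 4.76 and 8.75 CPM in air. The 4 mice at 6% were all above the 4 in air (2.61 ± 0.55, adjusted p = 0.0087). Cyp4a31 belongs to the PPARα-driven fatty acid ω-hydroxylases, and stood at 5.32, 2.02, 5.43 and 3.07 CPM at 6% against 23.0, 19.4, 8.72 and 15.0 in air. The groups did not overlap, and Cyp4a31 was lower at 6% (-2.02 ± 0.42, adjusted p = 0.0041). Its neighbour Cyp4a32 stood at 32.7, 30.6, 42.6 and 26.1 CPM against 76.4, 53.9, 52.6 and 77.4, again without overlap (-0.98 ± 0.30, adjusted p = 0.049). Cyp2a5, the coumarin 7-hydroxylase, stood at 381, 125, 209.5 and 214 CPM against 672, 924, 409 and 345. It was lower at 6% (-1.33 ± 0.37, adjusted p = 0.035), but its highest library at 6% exceeded the lowest in air. The summed Cyp2a counts did not pass (-0.40 ± 0.19, adjusted p = 0.21). The call of Cyp4a32 was lost when any 1 of the 8 libraries was left out (-1.13 to -0.88, largest adjusted p = 0.13), and that of Cyp2a5 without air A, air B, or B, C or D at 6% (-1.68 to -1.03, largest adjusted p = 0.11). Cyp26a1 and Cyp4a31 remained called in all 8 such fits, and were the only 2 called without air A or air B.

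In the dark phase, at ZT16-20, Cyp26a1 again rose and Cyp4a31 again fell, and 4 further liver enzymes fell: Cyp3a25, Cyp2d13, Cyp2d9 and Cyp4v3. That made 1 higher and 5 lower of 46, a smaller share than the 20.3% of all genes called (9.98% higher and 10.3% lower). Cyp26a1 stood at 35.3, 62.9, 46.6 and 196 CPM at 6% and 18.1, 8.86, 11.9 and 10.9 CPM in air. All libraries at 6% were above those in air, with library D far above the other 3 (2.78 ± 0.53, adjusted p = 0.0026). Cyp3a25, a steroid and drug hydroxylase, stood at 22.6, 56.3, 44.3 and 37.4 CPM at 6% against 104, 115, 101 and 96.8 in air, without overlap (-1.38 ± 0.25, adjusted p = 0.0010). Cyp4a31 stood at 2.30, 2.66, 4.40 and 9.08 CPM against 14.1, 15.3, 16.0 and 30.9. The groups were apart (-2.07 ± 0.41, adjusted p = 0.0018). Cyp2d13 stood at 16.3, 23.1, 20.6 and 18.2 CPM against 37.9, 25.8, 37.7 and 38.4, with air library B closest to the low-oxygen group (-0.84 ± 0.17, adjusted p = 0.0016). Cyp2d9, a steroid 16α-hydroxylase of male mice, stood at 3018 ± 501 CPM against 4117 ± 279 (SD, n = 4), a smaller difference (-0.45 ± 0.13, adjusted p = 0.020). Cyp4v3, a fatty acid hydroxylase, overlapped between the groups (-0.64 ± 0.21, adjusted p = 0.034). The call of Cyp2d9 was lost without air B (-0.40, adjusted p = 0.067) or D at 6% (-0.34, adjusted p = 0.078), and that of Cyp4v3 without any library except air C (-0.85 to -0.56, largest adjusted p = 0.094).

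Cyp2e1, Cyp2c29, Cyp1a2 and Cyp3a11 did not pass the test in either phase. Cyp2e1 stood at 3758, 5342, 3925 and 3766 CPM at 6% and 6748, 4576, 4389 and 5320.0 CPM in air at ZT4-8 (-0.33 ± 0.16, adjusted p = 0.23), and its difference at ZT16-20 was -0.03 ± 0.16, adjusted p = 0.92. The groups overlapped at both times. Cyp2c29, an epoxygenase of fatty acids, differed by -0.04 ± 0.23 and -0.03 ± 0.23, Cyp1a2, which clears caffeine, by 0.11 ± 0.17 and -0.29 ± 0.17, and Cyp3a11, the main drug-metabolising enzyme of subfamily 3a, by -0.39 ± 0.19 and 0.05 ± 0.19. The PPARα targets Cyp4a10 (-1.47 ± 0.53, adjusted p = 0.11) and Cyp4a14 (-2.05 ± 0.77, adjusted p = 0.13) were lower at ZT4-8 on average without passing, as was Cyp3a13 (-0.73 ± 0.31, adjusted p = 0.15). At ZT16-20 they differed by -0.86 ± 0.52, -0.80 ± 0.72 and 0.13 ± 0.30. With the counts of each subfamily summed, Cyp26a was higher and Cyp3a lower at both times (Cyp3a -0.53 ± 0.16, adjusted p = 0.035 at ZT4-8 and -0.48 ± 0.16, adjusted p = 0.037 at ZT16-20), and the Cyp4a sum did not pass (-1.51 ± 0.51, adjusted p = 0.089 and -0.82 ± 0.50, adjusted p = 0.28). Over the 46 members the median log2 difference was -0.09 and -0.09, against -0.01 and -0.00 over all genes.

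No member passed the test of a differing oxygen response between phases (0 of 46 by edgeR and by DESeq2, 4 at an unadjusted p under 0.05, all genes 2.06%, 0.815% higher and 1.25% lower). The difference of responses was 0.17 ± 0.76, adjusted p = 0.95 for Cyp26a1 and 1.63 ± 0.51, adjusted p = 0.15 for Cyp2a5, whose fall was called at ZT4-8 only. Markers of the liver zones that are not P450s moved in part beside these results. Of 7 periportal markers 3 were higher at 6% at ZT4-8, with a summed level of 4575 to 6502 CPM against 4123 to 5535 in air, and 1 of 7 at ZT16-20. Of 7 pericentral markers 1 was lower at each time, with overlapping sums (1335 to 1800.3 against 1309 to 2198 CPM at ZT4-8). Their part in the P450 results was not tested.

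**Figure D2:**
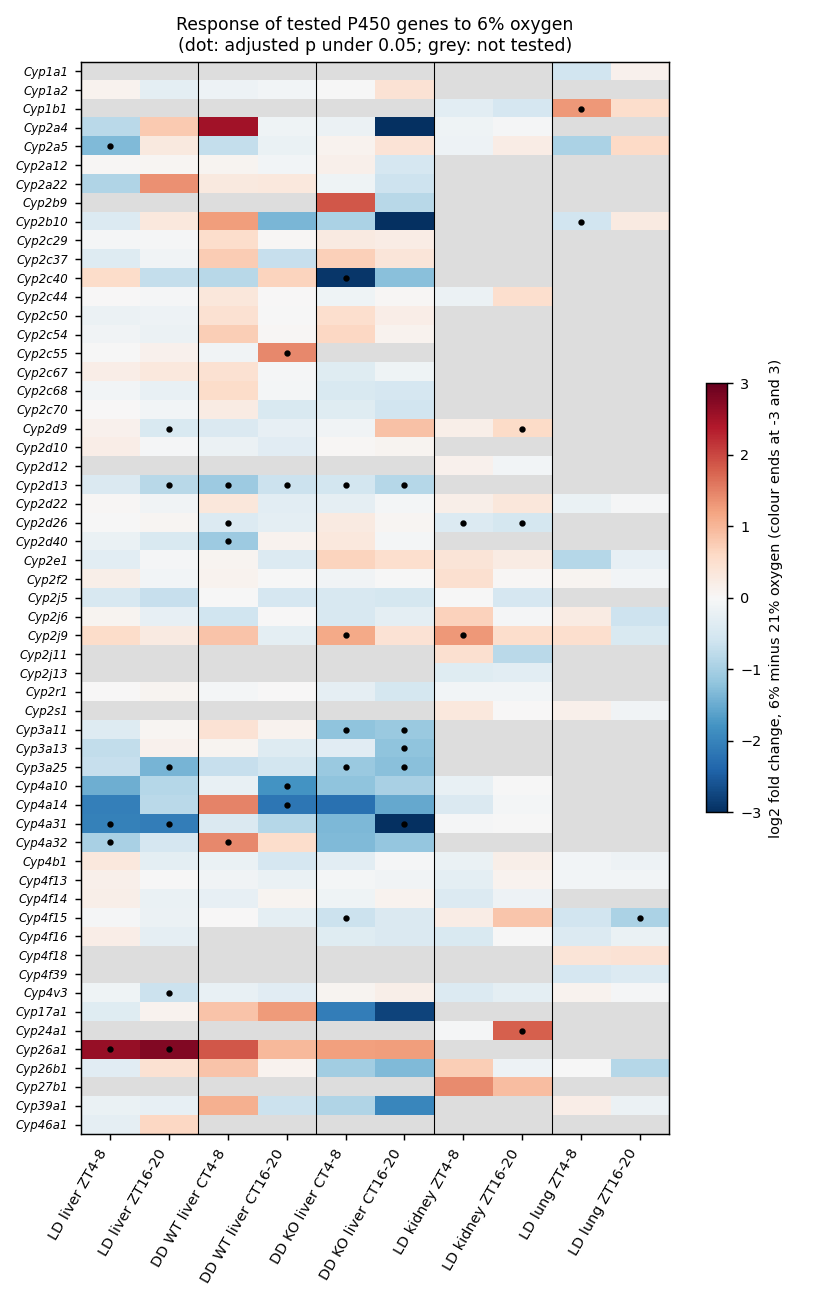
Log2 difference between 6% and 21% oxygen for the 57 members tested in any comparison (rows), in the 10 combinations of tissue, time and genotype (columns). A dot marks an adjusted p under 0.05, grey a member not tested there, and colours end at -3 and 3; called members are few in each column, and Cyp26a1 was called in light-dark liver at both times.

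In air, a group of liver P450s was higher in the dark phase than in the light phase. At ZT16-20, 6 of 46 members (13%) were higher than at ZT4-8 and 0 lower (DESeq2 called 9), against 3.24% of all genes called higher and 2.68% lower (5.91% in all). The median over the 46 was 0.35, against -0.01 over all genes, and 38 of 46 were positive. Cyp4b1 stood at 45.9, 39.6, 40.6 and 35.0 CPM at ZT16-20 and 17.3, 21.96, 19.6 and 14.6 CPM at ZT4-8. The times did not overlap (1.14 ± 0.18, adjusted p = 0.00033). Cyp4f14 stood at 569, 625, 755 and 603 CPM against 437, 409, 398 and 388, also apart (0.65 ± 0.14, adjusted p = 0.0071). Cyp2b10 stood at 12.3, 17.7, 14.2 and 22.9 CPM against 4.61, 1.74, 3.70 and 4.76, the largest log2 difference of the 6 (2.15 ± 0.45, adjusted p = 0.0089). Cyp2d9 stood at 3866, 4503, 3971 and 4128 CPM against 2911, 2727, 3101 and 2854 (0.51 ± 0.13, adjusted p = 0.024). The other two were Cyp2d10 (0.43 ± 0.13, adjusted p = 0.045) and Cyp1a2 (0.59 ± 0.17, adjusted p = 0.045). Of subfamily sums, 6 rose and 0 fell of 19: Cyp1a, Cyp2a (0.72 ± 0.19), Cyp2b, Cyp2d (0.42 ± 0.12), Cyp4b and Cyp4f (0.54 ± 0.12).

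Cyp4b1, Cyp4f14 and Cyp2b10 remained called with any 1 of these 8 libraries left out. Cyp2d9 was lost without B or D at ZT16-20 or A, B or D at ZT4-8 (0.46 to 0.54, largest adjusted p = 0.082), Cyp2d10 without any except A at ZT16-20 (0.35 to 0.50, largest adjusted p = 0.15) and Cyp1a2 without any except A at ZT4-8 (0.52 to 0.70, largest adjusted p = 0.14). The number called was 3 without D at ZT16-20, or B or D at ZT4-8. In constant darkness the WT liver repeated the direction on average, with 33 of 44 members positive and a median of 0.25 against -0.02, and 2 were called higher, against 1.8% of all genes called higher and 3.66% in all. Of the members called in light-dark liver, Cyp2b10 alone was called again. Cyp4b1 (0.25 ± 0.23) and Cyp1a2 (0.26 ± 0.18) were positive, and Cyp4f14 (-0.12 ± 0.13) and Cyp2d9 (-0.24 ± 0.21) negative. Cyp2d10 averaged 1475 CPM at CT16-20 and 1465 CPM at CT4-8. The Cyp2d (-0.20 ± 0.15) and Cyp4f (-0.11 ± 0.14) sums were negative, and those of Cyp1a, Cyp2a, Cyp2b and Cyp4b positive. Cyp2b10 stood at 10.3, 25.5, 51.6 and 67.1 CPM at CT16-20 and 7.14, 9.97, 10.8 and 4.68 CPM at CT4-8. CT16-20 library A lay within the CT4-8 range, and the other 3 lay above it (2.27 ± 0.58, adjusted p = 0.043). Cyp39a1 stood at 10.8 ± 2.32 against 3.69 ± 2.06 CPM (SD, n = 4, 1.54 ± 0.41, adjusted p = 0.036). Cyp2b10 was lost without any library except A at CT16-20 (1.89 to 2.57, largest adjusted p = 0.11), and Cyp39a1 without any except C at CT4-8 (1.34 to 1.93, largest adjusted p = 0.11). The number called was 0 without B, C or D at CT16-20 or B or D at CT4-8, 1 without A at CT16-20 and 4 without C at CT4-8. In KO liver 0 of 45 members differed between times by edgeR and 1 by DESeq2, with 5 at an unadjusted p under 0.05, where 0.0235% of all genes were called (0% higher and 0.0235% lower). Cyp3a11 had -1.24 ± 0.27, adjusted p = 0.30, and the median was -0.04. Whether the difference between times itself differed between genotypes was not tested.

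**Figure D3:**
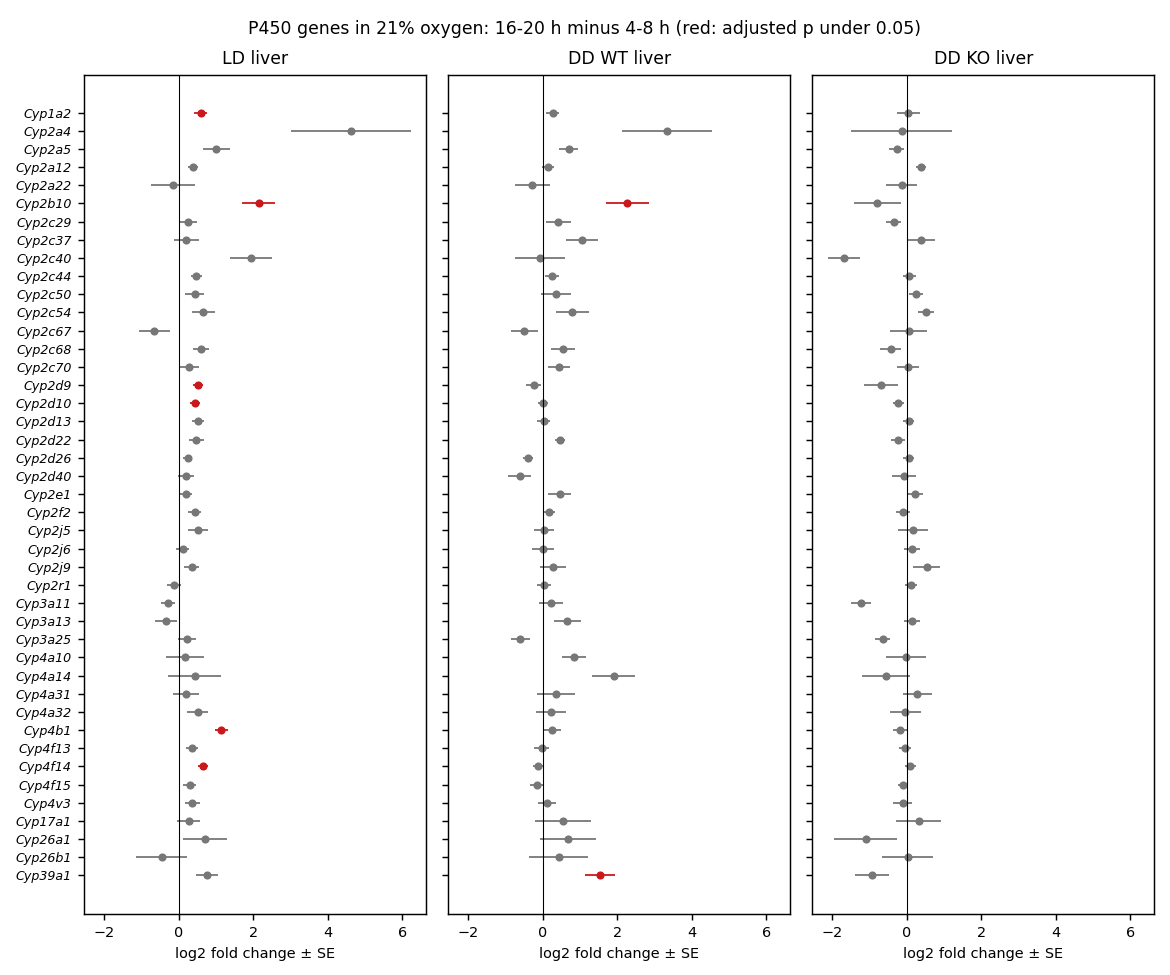
Log2 difference between the 16-20 h and the 4-8 h window in air (point, with SE as the bar) for the members named in the time comparisons, in light-dark WT liver, WT liver in darkness and KO liver in darkness. Red points had an adjusted p under 0.05; Cyp2b10 was called in both WT settings, at 2.15 and 2.27, and no member in KO.

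In kidney, Cyp2j9 and Cyp24a1 rose at 6% oxygen, each at 1 of the times, and Cyp2d26 fell at both. At ZT4-8, 1 of 29 members was higher and 1 lower, where 5.28% of all genes were called (2.79% higher and 2.49% lower). Cyp2j9, which acts on arachidonic acid, stood at 25.3, 35.5, 27.1 and 22.8 CPM at 6% and 13.3, 5.92, 17.9 and 7.79 CPM in air. The groups did not overlap (1.30 ± 0.25, adjusted p = 0.0028). Cyp2d26 stood at 240.3, 236, 228 and 216 CPM against 312, 315, 283 and 321, lower without overlap (-0.42 ± 0.11, adjusted p = 0.030). The call of Cyp2d26 was lost without A, B or D in air or A, C or D at 6% (-0.46 to -0.39, largest adjusted p = 0.090), and the number called was 1 without air A or B or A or D at 6%. Without both kidney air libraries that stood apart, neither was called (Cyp2j9 0.81, adjusted p = 0.055, and Cyp2d26 -0.37, adjusted p = 0.18).

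At ZT16-20, 2 of 29 were higher and 1 lower, where 6.9% of all genes were called (3.44% higher and 3.47% lower), and all 3 remained called with any 1 of the 8 libraries left out. The vitamin D 24-hydroxylase Cyp24a1, which inactivates calcitriol in the tubule, lies at chr2:170482708-170497145, minus strand (mm10). It stood at 187, 155, 273 and 250.8 CPM at 6% and 55.2, 45.6, 98.8 and 49.2 CPM in air at ZT16-20. Every library at 6% was above every one in air (1.79 ± 0.28, adjusted p = 0.00071). At ZT4-8 it stood at 238.1, 141, 259 and 175 CPM at 6% and 165, 282, 155 and 235 CPM in air, with overlap (-0.04 ± 0.27, adjusted p = 0.95). The air group at ZT16-20 was thus the low one of the 4. In air Cyp24a1 fell from ZT4-8 to ZT16-20 (-1.75 ± 0.28, adjusted p = 0.0033), the only 1 of 29 called between times, where 1.09% of all genes were called (0.533% higher and 0.561% lower). Without both air libraries that stood apart this difference was -1.36, adjusted p = 0.096. The difference of its oxygen responses was just short of the threshold (1.83 ± 0.39, adjusted p = 0.054), and 0 of 29 members passed by edgeR, 1 by DESeq2, and 6 at an unadjusted p under 0.05 (all genes 0.368%, 0.23% higher and 0.138% lower). The count was 1 without ZT16-20 air C, ZT16-20 B at 6% or ZT4-8 air C.

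Its opposing enzyme Cyp27b1, the 1α-hydroxylase that makes calcitriol, did not pass. It stood at 10.7, 5.53, 4.13 and 11.1 CPM at 6% and 3.06, 1.80, 1.99 and 5.19 CPM in air at ZT4-8 (1.41 ± 0.44, adjusted p = 0.065) and at 6.11, 4.42, 12.0 and 10.2 against 5.69, 4.39, 5.36 and 1.59 CPM at ZT16-20 (0.94 ± 0.41, adjusted p = 0.19). Its groups overlapped at both times. Cyp2d9 stood at 586, 635, 715 and 604 CPM at 6% and 439.9, 428, 375 and 457 CPM in air at ZT16-20. It was higher at 6% (0.58 ± 0.12, adjusted p = 0.0041), whereas it fell in liver at the same time, and the difference between tissues was not tested. Cyp2d26 was lower as at ZT4-8, at 215, 229, 267 and 266 CPM against 319, 315, 417 and 349 (-0.52 ± 0.11, adjusted p = 0.0051). The summed Cyp2d counts did not follow it, at 0.01 ± 0.11 and 0.16 ± 0.11. Cyp4b1, which held the largest share of the members' counts in kidney, differed by -0.21 ± 0.14, adjusted p = 0.43 and 0.17 ± 0.14, adjusted p = 0.50. Beside these results, 1 of 6 proximal tubule markers was lower at each time, with a summed level at ZT16-20 of 7047 to 8692 CPM at 6% and 6977 to 8149 in air, and 1 of 3 fat markers was lower at ZT16-20, with sums of 1.46 to 8.34 and 7.69 to 119.8 CPM. Their part in these results was not tested.

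In lung, Cyp1b1 rose and Cyp2b10 fell at ZT4-8, and Cyp4f15 fell at ZT16-20. At ZT4-8, 1 of 19 members was higher and 1 lower (all genes 22.6%, 11.2% higher and 11.4% lower), and at ZT16-20, 0 were higher and 1 lower (all genes 21.1%, 10.2% higher and 10.9% lower). Cyp1b1 (chr17:79701537-79715061, minus strand, mm10), an AhR target of stromal and vascular cells that oxidises estradiol, stood at 12.1, 7.70, 12.2 and 15.6 CPM at 6% and 4.45, 5.06, 5.20 and 4.58 CPM in air at ZT4-8. All libraries at 6% were higher (1.30 ± 0.27, adjusted p = 0.0011). At ZT16-20 its difference was 0.53 ± 0.27, adjusted p = 0.17. Cyp2b10 stood at 169, 226, 201 and 159 CPM against 313, 329, 201 and 284 at ZT4-8. It was lower at 6%, with air library C inside the low-oxygen range (-0.58 ± 0.15, adjusted p = 0.0078), and differed by 0.26 ± 0.15, adjusted p = 0.24 at ZT16-20. Cyp4f15 stood at 7.88, 8.88, 10.7 and 10.4 CPM at 6% and 18.0, 21.3, 22.6 and 11.6 CPM in air at ZT16-20, apart by a small gap (-0.94 ± 0.23, adjusted p = 0.0043). These 3 calls remained with any 1 library of their groups left out, and without the 3 lung air libraries that stood apart.

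Cyp2f2, which held the largest share of the members' counts in lung, differed by 0.09 ± 0.10 and -0.08 ± 0.10 and did not pass at either time. Cyp1a1 was too variable to place, at 29.4, 21.9, 32.4 and 223 CPM at 6% and 35.1, 18.9, 166 and 55.4 CPM in air at ZT16-20 (0.13 ± 0.75, adjusted p = 0.92), with 1 high library in each group. No member passed between times in air (0 of 19 by edgeR and DESeq2, 4 at an unadjusted p under 0.05, all genes 0.979%, 0.346% higher and 0.634% lower). Between the oxygen responses of both times, 0 differed by edgeR and 1 by DESeq2, with 3 at an unadjusted p under 0.05 (all genes 0.255%, 0.14% higher and 0.115% lower), and Cyp2b10 came closest (0.84 ± 0.22, adjusted p = 0.13). The edgeR count was 1 without ZT4-8 air C. Beside the rise of Cyp1b1, 1 of 4 endothelial markers was higher at each time. The summed endothelial level did not overlap between oxygen groups, at 3646 to 4243 CPM at 6% against 2022 to 2329 in air at ZT4-8 and 2389 to 3365 against 1600.3 to 2055 at ZT16-20. Its part in the Cyp1b1 result was not tested. Summed hepatocyte markers in lung air libraries reached 188 CPM, with Apob and Tf not listed or at 0.

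**Figure D4:**
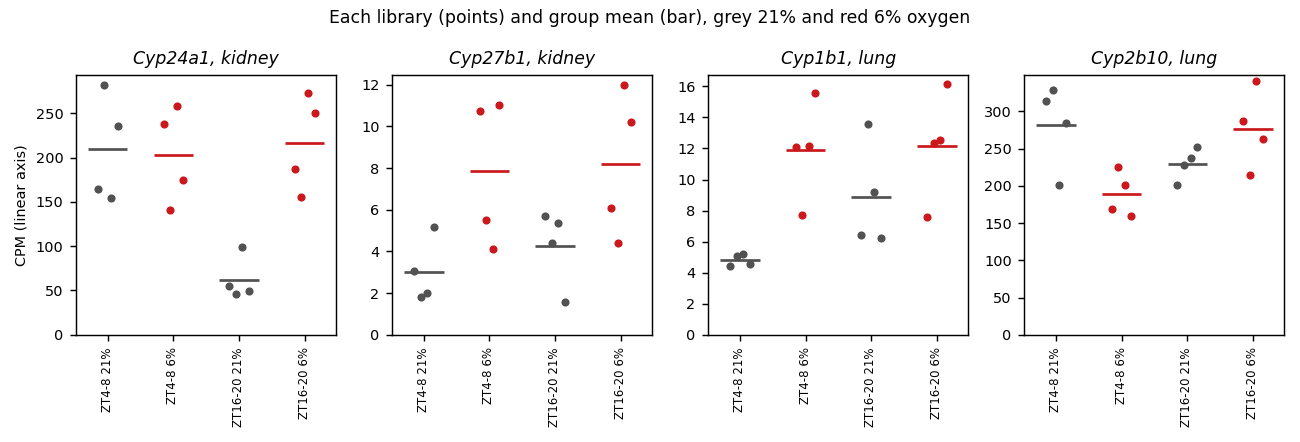
CPM of each library (points) and the group mean (bar) for Cyp24a1 and Cyp27b1 in kidney and Cyp1b1 and Cyp2b10 in lung, by time and oxygen (grey 21%, red 6%), on linear axes. Kidney Cyp24a1 is low in air at ZT16-20 alone, between 45.6 and 98.8 CPM, and lung Cyp1b1 at 6% lies above air at ZT4-8.

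Constant darkness gave the oxygen comparison in liver without light cues. In WT liver at CT4-8, 1 of 44 members was higher and 3 lower, where 11.8% of all genes were called (5.7% higher and 6.07% lower). Cyp2d13 stood at 15.2, 28.0, 27.4 and 28.4 CPM at 6% and 61.9, 58.1, 37.5 and 53.1 CPM in air. The groups did not overlap (-1.08 ± 0.19, adjusted p = 0.00048). Cyp2d40, of the same subfamily, stood at 47.9, 98.5, 94.99 and 104 CPM against 212, 241, 107 and 179, also lower and apart (-1.09 ± 0.31, adjusted p = 0.029). Cyp2d26 stood at 1115, 1289, 1391 and 1387 CPM against 1883, 1811, 1591 and 1646 (-0.42 ± 0.13, adjusted p = 0.038). Cyp4a32 went the other way from the light-dark liver at ZT4-8, at 189, 101, 138 and 184 CPM at 6% against 35.1, 59.4, 63.6 and 66.8 in air. All 4 libraries at 6% were higher (1.43 ± 0.41, adjusted p = 0.036), and the difference between lighting regimens was not tested. The Cyp4a sum did not pass (0.50 ± 0.36, adjusted p = 0.41), and Cyp4a32 shares sequence with its neighbours. Without air A, the library that stood apart, Cyp2d40 (-1.002, adjusted p = 0.11) and Cyp4a32 (1.29, adjusted p = 0.11) were not called. Cyp2d40 was also lost without air B or D, or A or C at 6% (-1.27 to -0.89, largest adjusted p = 0.11), Cyp4a32 without any library except B at 6% (1.29 to 1.59, largest adjusted p = 0.11), and Cyp2d26 without air B or D or any library at 6% (-0.45 to -0.35, largest adjusted p = 0.13). The number called was 1 without air B or D or C at 6%, and 2 without A or D at 6%. Of 7 periportal markers 5 were higher at 6% at CT4-8, with sums of 10521 to 12683 CPM against 7155 to 9026, and their part was not tested.

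At CT16-20 in WT liver, both classical PPARα targets of subfamily 4a fell, with 1 of 44 members higher and 3 lower and 9.83% of all genes called (5.28% higher and 4.55% lower). Cyp4a10 (chr4:115518264-115533649, plus strand, mm10) stood at 190.5, 217, 271 and 165 CPM at 6% and 554, 796, 790.5 and 788 CPM in air. The groups were far apart (-1.80 ± 0.33, adjusted p = 0.0018). Cyp4a14 (chr4:115486200-115496142, minus strand) stood at 67.0, 195, 61.1 and 49.2 CPM against 293, 593, 384 and 415, with library B at 6% the closest (-2.17 ± 0.58, adjusted p = 0.032). The summed Cyp4a counts fell as well (-1.61 ± 0.37, adjusted p = 0.011). Cyp2c55, a CAR and PXR target that forms hydroxy fatty acids, stood at 17.5, 32.4, 22.5 and 12.7 CPM against 8.16, 5.18, 7.22 and 11.2 and was higher at 6% (1.44 ± 0.37, adjusted p = 0.015). Cyp2d13 stood at 37.4, 33.7, 32.4 and 34.0 CPM against 51.1, 55.7, 57.4 and 49.4, lower and without overlap (-0.64 ± 0.18, adjusted p = 0.024). Cyp4a10 remained called with any 1 of the 8 libraries left out. Cyp4a14 was lost without air B, C or D or A, C or D at 6% (-2.84 to -1.97, largest adjusted p = 0.091), Cyp2d13 without air B or C or C or D at 6% (-0.69 to -0.60, largest adjusted p = 0.073) and Cyp2c55 without air B or C or B at 6% (1.15 to 1.65, largest adjusted p = 0.067). The number called was 1 without air B or C, and 2 without C or D at 6%.

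At CT4-8 the same Cyp4a14 had the other order, at 309, 297, 304 and 340.3 CPM at 6% and 38.1, 46.8, 269 and 93.9 CPM in air, without overlap but short of the threshold (1.48 ± 0.57, adjusted p = 0.12). Its oxygen response differed between times (-3.65 ± 0.81, adjusted p = 0.043, against -2.11 ± 0.51, adjusted p = 0.051 for the Cyp4a sum), 1 of 44 members by edgeR and 3 by DESeq2, where 1.62% of all genes were called (0.823% higher and 0.799% lower). That call was lost without 14 of the 16 libraries, all but CT4-8 air C and CT16-20 B at 6% (-4.57 to -3.39, largest adjusted p = 0.096), and 2 members were called without either of these. Cyp26a1 did not pass in darkness in WT. It stood at 31.5, 55.9, 18.1 and 52.0 CPM at 6% and 20.8, 9.97, 6.32 and 8.02 CPM in air at CT4-8 (1.86 ± 0.71, adjusted p = 0.11), and the difference at CT16-20 was 0.97 ± 0.66, adjusted p = 0.43. Cyp2b10 had -1.38 ± 0.53, adjusted p = 0.12 at CT16-20, and Cyp3a11 had 0.43 ± 0.33 and 0.10 ± 0.32.

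In liver labelled KO, subfamily 3a fell at both times. At CT4-8, 1 of 45 members was higher and 5 lower, against 2.83% of all genes called higher and 2.76% lower (5.59% in all), and at CT16-20, 0 were higher and 5 lower, against 2.39% and 2.11% (4.51% in all). DESeq2 called 11 and 10. The median over the 45 members was -0.26 and -0.42, against 0.01 and -0.01 over all genes. Cyp3a25 stood at 28.9, 42.3, 27.9 and 47.8 CPM at 6% and 66.8, 84.7, 93.7 and 69.6 CPM in air at CT4-8 (-1.11 ± 0.20, adjusted p = 0.0019), and Cyp3a11 at 48.5, 101, 89.7 and 70.0 against 196, 152, 197 and 170.3 CPM (-1.21 ± 0.26, adjusted p = 0.011). Both were lower at 6% in every library. At CT16-20 Cyp3a25 stood at 17.3, 20.2 and 25.4 CPM at 6% in its 3 libraries and 54.8, 50.1, 62.1 and 33.7 CPM in air (-1.26 ± 0.23, adjusted p = 0.0021). Cyp3a11 stood at 18.1, 35.8 and 52.2 against 99.1, 73.1, 71.3 and 60.1 CPM (-1.11 ± 0.30, adjusted p = 0.042), and Cyp3a13 at 5.67, 5.55 and 6.87 against 13.2, 11.8, 13.6 and 16.9 CPM (-1.22 ± 0.23, adjusted p = 0.0031). None of these groups overlapped. The summed Cyp3a counts fell at both times (-1.12 ± 0.20, adjusted p = 0.0013, and -1.17 ± 0.22, adjusted p = 0.0028). The promoters of Cyp3a25 (RefSeq, GRCm38.p6, chr5:146009569-146009868, minus strand) and Cyp3a11 (chr5:145879805-145880104, minus strand) are shown because both genes fell together in KO liver at both times. Capitals mark the nuclear receptor core motif AGGTCA, or TGACCT where it reads on the opposite strand, at -176 and -155 in Cyp3a25 and -162 in Cyp3a11.

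Cyp3a25: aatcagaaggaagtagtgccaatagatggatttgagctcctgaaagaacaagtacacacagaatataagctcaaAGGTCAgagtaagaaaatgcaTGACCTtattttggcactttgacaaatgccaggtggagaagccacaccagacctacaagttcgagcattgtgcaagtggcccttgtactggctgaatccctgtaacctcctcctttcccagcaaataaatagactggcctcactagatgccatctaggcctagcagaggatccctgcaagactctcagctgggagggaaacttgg
Cyp3a11: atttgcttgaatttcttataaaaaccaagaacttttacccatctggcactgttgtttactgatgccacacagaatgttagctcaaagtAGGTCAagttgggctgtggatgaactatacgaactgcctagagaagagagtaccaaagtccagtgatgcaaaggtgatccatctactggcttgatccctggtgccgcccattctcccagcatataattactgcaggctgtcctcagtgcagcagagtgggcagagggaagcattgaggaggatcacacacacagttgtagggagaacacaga

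AGGTCA, counted in the same 2 unlike ways, was present in 13 of the 52 members with a promoter (25%), and in 16.3% of all promoters. The promoter of Cyp3a13, which fell in KO liver at CT16-20, held none, and that of Cyp3a59, which was not tested, held 2. The other members called in KO liver at CT4-8 were Cyp4f15, Cyp2d13, Cyp2c40 and Cyp2j9. Cyp4f15 stood at 167, 237, 218 and 214 CPM at 6% and 324, 303, 328 and 358 CPM in air, without overlap (-0.65 ± 0.14, adjusted p = 0.0067). Cyp2d13 stood at 35.3, 32.4, 33.0 and 34.7 against 47.3, 55.9, 39.9 and 56.3 CPM (-0.56 ± 0.14, adjusted p = 0.026). Cyp2c40 had 1.28 ± 0.931 against 9.69 ± 3.81 CPM (SD, n = 4, -2.92 ± 0.47, adjusted p = 0.00065), but the Cyp2c sum did not follow (0.28 ± 0.19). Cyp2j9 was the 1 higher member (1.14 ± 0.33, adjusted p = 0.045). At CT16-20 the largest fall was that of Cyp4a31, from 15.2, 19.5, 21.8 and 31.1 CPM in air to 1.08, 1.51 and 4.81 CPM (-3.23 ± 0.52, adjusted p = 0.0013), while the Cyp4a sum did not pass (-1.09 ± 0.58, adjusted p = 0.36). Cyp2d13 again fell, at 33.2, 24.2 and 28.2 against 50.2, 51.5, 50.1 and 53.2 CPM (-0.85 ± 0.16, adjusted p = 0.0024), and was called in both WT and both KO oxygen comparisons in darkness and in light-dark liver at ZT16-20. Its sequence sharing with other Cyp2d genes was not assessed. The Cyp2d sum passed in none of these comparisons. It differed by -0.36 and -0.28 in WT, 0.05 and 0.31 in KO, and -0.23 in light-dark liver at ZT16-20. Cyp2d13 at CT4-8 was lost without air B or D or C at 6% (-0.65 to -0.49, largest adjusted p = 0.091), Cyp2j9 without any except air A (0.90 to 1.43, largest adjusted p = 0.13), and Cyp3a11 at CT16-20 without air A, B or C or A or B at 6% (-1.48 to -0.78, largest adjusted p = 0.14).

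Of the uncalled members in KO liver, the steroidogenic Cyp17a1 stood at 4.59, 7.06 and 4.12 CPM at 6% and 70.0, 28.5, 41.4 and 10.5 CPM in air at CT16-20, without overlap (-2.79 ± 0.75, adjusted p = 0.057). Cyp2b10 had -3.70 ± 1.01, adjusted p = 0.056 at CT16-20 and Cyp4a14 -2.23 ± 0.68, adjusted p = 0.090 at CT4-8. Cyp2e1 was higher on average at CT4-8 (0.67 ± 0.21, adjusted p = 0.067), and Cyp26a1 did not pass (1.22 ± 0.79, adjusted p = 0.45, and 1.25 ± 0.88, adjusted p = 0.51). No difference of oxygen responses between times passed in KO (0 of 45 by edgeR and DESeq2, 6 at an unadjusted p under 0.05, all genes 0.0117%, 0.0117% higher and 0% lower). Depth and the summed hepatocyte markers moved with oxygen in these libraries. Total counts were 1963106 to 2484622 at 6% against 1591073 to 1910872 in air at CT4-8 and 2796286 to 3768161 against 1443279 to 2020619 at CT16-20. The hepatocyte marker sum was 59461 to 75659.9 against 62030.2 to 100582 CPM at CT4-8 and 54574 to 61112 against 75339.7 to 101459 CPM at CT16-20, without overlap at the later time, and 0 of its members were called. Their part in the KO results was not tested.

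**Figure D5:**
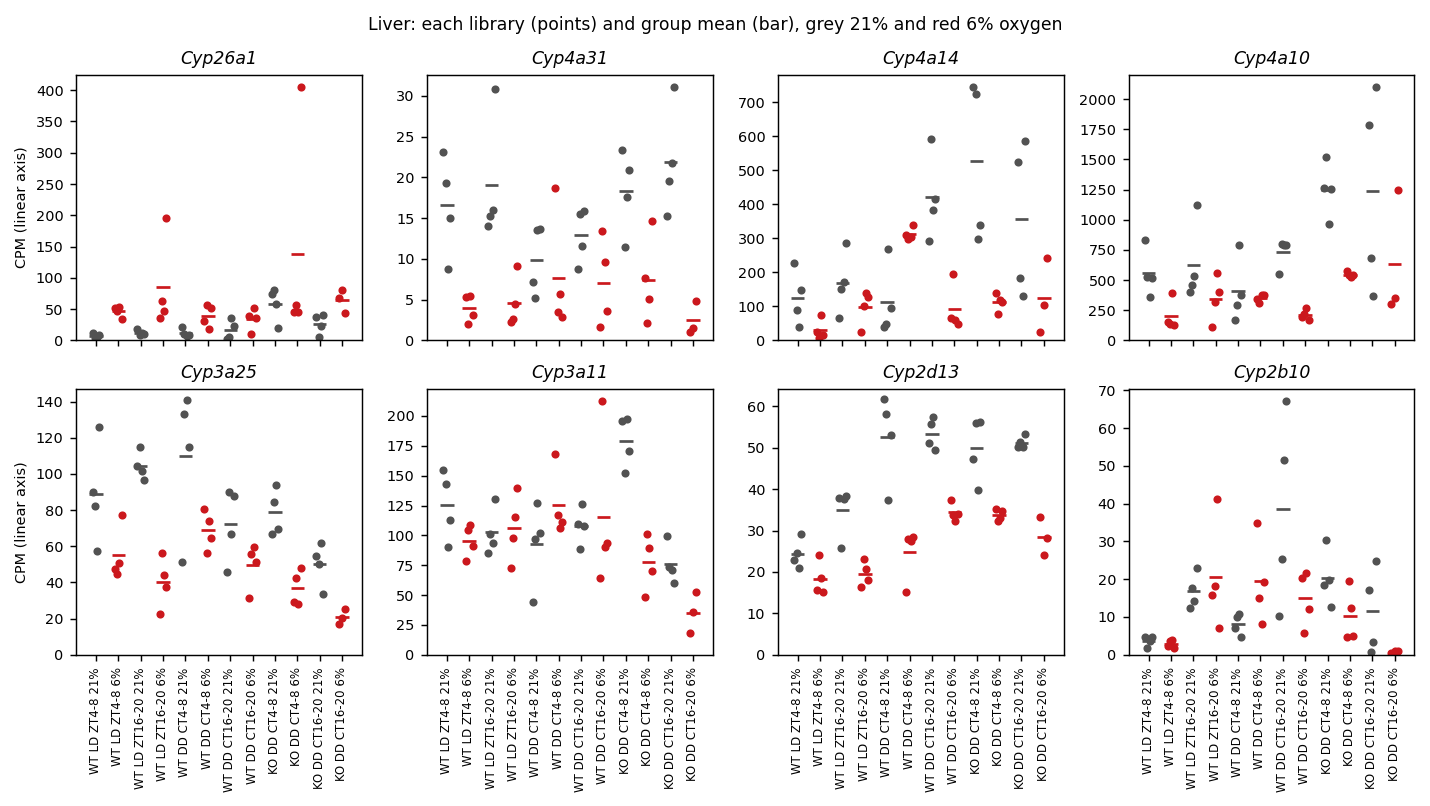
CPM of each liver library (points) and the group mean (bar) for 8 members over the 12 liver groups, by regimen, genotype, time and oxygen (grey 21%, red 6%), on linear axes. Cyp3a25 and Cyp3a11 lie lower at 6% in both KO comparisons, and Cyp4a14 changes order between CT4-8 and CT16-20 in WT liver in darkness.

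Libraries labelled KO and WT were compared in air in a joint fit of both tables. At CT4-8, 3 of 47 members were higher and 1 lower in KO, where 4.51% of all genes were called (2.26% higher and 2.24% lower), and DESeq2 called 9. Cyp4a10 stood at 1269.6, 1519, 958 and 1257 CPM in KO and 165, 291, 795 and 371 CPM in WT. The genotypes did not overlap, and the WT libraries spread widely (1.62 ± 0.47, adjusted p = 0.047). Cyp4a14 stood at 750.5, 724, 295 and 339 against 37.7, 45.9, 269.5 and 92.5 CPM, higher in every KO library (2.24 ± 0.65, adjusted p = 0.049). Cyp3a13 was also higher (1.06 ± 0.31, adjusted p = 0.038), and Cyp2c67 was lower with overlap (-1.74 ± 0.43, adjusted p = 0.014). None of the 4 remained called through all 8 fits with 1 library left out. The ranges were 1.37 to 2.18, largest adjusted p = 0.12 for Cyp4a10 (kept without WT C alone), 1.96 to 3.15, largest adjusted p = 0.12 for Cyp4a14, 0.82 to 1.39, largest adjusted p = 0.12 for Cyp3a13 and -2.20 to -1.38, largest adjusted p = 0.069 for Cyp2c67, and the number called was 0 without KO A or C, 1 without KO B or WT B, and 2 without WT A or D. The Cyp4a sum was higher in KO (1.69 ± 0.48, adjusted p = 0.042).

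At CT16-20, 0 of 47 were higher and 3 lower in KO, where 2% of all genes were called (0.965% higher and 1.03% lower), and DESeq2 called 6. Cyp2a5 (chr7:26835305-26843548, plus strand, mm10) stood at 269.8, 218, 163 and 299 CPM in KO and 753, 633, 411 and 672 CPM in WT, without overlap (-1.38 ± 0.24, adjusted p = 0.0012). Cyp1a2 stood at 334, 789, 512 and 704 against 1144, 1107, 1294 and 1287 CPM, lower in every KO library (-1.05 ± 0.26, adjusted p = 0.023). Cyp2c55 stood at 1.97 ± 0.885 against 7.95 ± 2.58 CPM (SD, n = 4, -1.98 ± 0.52, adjusted p = 0.036). Cyp2a5 remained called with any 1 library left out, Cyp1a2 was lost without KO A or C or WT C or D (-1.22 to -0.87, largest adjusted p = 0.095) and Cyp2c55 without KO A, B or C or WT A, C or D (-2.21 to -1.76, largest adjusted p = 0.15). The summed Cyp2a counts did not pass (-0.19 ± 0.16, adjusted p = 0.66). The number called was 1 without KO A or WT C or D, and 5 without KO D.

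The oxygen response at CT4-8 differed between genotypes for Cyp4a32, Cyp4a14 and Cyp2d26, 1 more positive and 2 more negative in KO of 47 tested, where 2.42% of all genes were called (1.15% higher and 1.27% lower) and DESeq2 called 5. Cyp4a32 stood at 29.9, 59.2, 23.5 and 20.7 CPM at 6% and 80.4, 111, 71.4 and 72.3 CPM in air in KO. In WT it stood at 191, 101, 138 and 181 and 34.7, 58.2, 63.8 and 65.9 CPM. KO libraries were lower at 6% and WT libraries higher, with no overlap in either genotype (-2.77 ± 0.62, adjusted p = 0.018). Cyp4a14 stood at 141, 75.3, 121 and 113 CPM at 6% in KO against 750.5, 724, 295 and 339 in air, and at 311, 296, 304 and 335 against 37.7, 45.9, 269.5 and 92.5 CPM in WT. Its order in KO was likewise the reverse of that in WT (-3.71 ± 0.91, adjusted p = 0.030). Cyp2d26 stood at 1607, 1657, 1377 and 1609.5 against 1073, 1282, 1241 and 1589.6 CPM in KO and 1124, 1285, 1391 and 1366 against 1863, 1775, 1594 and 1622 CPM in WT. It was lower at 6% in WT, and higher on average in KO (0.68 ± 0.18, adjusted p = 0.037). Cyp3a11 was just short of the threshold (-1.65 ± 0.46, adjusted p = 0.052). Cyp4a32 remained called without any 1 of the 16 libraries, but the Cyp4a sum did not pass (-1.93 ± 0.66, adjusted p = 0.13), and Cyp4a14 and Cyp2d26 were each lost in 9 of the 16 fits (-4.61 to -3.43, largest adjusted p = 0.066, and 0.60 to 0.80, largest adjusted p = 0.11). The number called was 1 without KO air A or B, KO A or D at 6%, WT air B or WT D at 6%, and 5 without KO B at 6% or WT air C. These 3 responses compare the same WT and KO air libraries as the genotype differences in air. At CT16-20, 0 of 47 responses differed by edgeR and 1 by DESeq2, with 9 at an unadjusted p under 0.05 (all genes 0.0444%, 0.0222% higher and 0.0222% lower).

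Genes that supply and regulate P450s came from lists of redox partners, heme synthesis and transcription factors. Por, the main electron donor of the microsomal members, changed in opposite directions by phase in light-dark liver. It stood at 279, 227, 288 and 262 CPM at 6% and 556, 532, 374 and 617 CPM in air at ZT4-8, and at 669, 629, 727 and 760.1 and 359.5, 392, 539.9 and 417 CPM at ZT16-20. It fell without overlap in the light phase (-0.98 ± 0.15, adjusted p = 9.0e-05) and rose without overlap in the dark phase (0.70 ± 0.15, adjusted p = 0.0017), and the responses differed (1.68 ± 0.21, adjusted p = 4.4e-05). Por also rose at ZT16-20 in kidney (0.58 ± 0.13, adjusted p = 0.0056) and lung (0.57 ± 0.12, adjusted p = 0.0015). The shares of all genes called in each comparison serve as the background for these lists too: 9.64% and 20.3% in light-dark liver, 5.28% and 6.9% in kidney, 22.6% and 21.1% in lung, 11.8% and 9.83% in WT and 5.59% and 4.51% in KO liver in darkness, at the earlier and later time. Of 10 redox partners listed, those called at 6% in light-dark tissue were 0 higher and 1 lower of 8 in liver at ZT4-8, 2 and 0 at ZT16-20, 0 and 0 of 9 and then 1 and 0 in kidney, and 2 and 0 of 9 at each time in lung, where ferredoxin Fdx1 rose (0.44 ± 0.10 and 0.74 ± 0.10). In darkness 0 of 9 were called in WT at either time, and in KO 1 of 8 was lower at CT4-8, the cytochrome b5 reductase Cyb5r3 (-0.95 ± 0.16, adjusted p = 0.0011).

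Heme synthesis genes gave 1 lower of 12 in light-dark liver at each time, Alad, which forms porphobilinogen (-1.63 ± 0.34, adjusted p = 0.0025 at ZT4-8 and -1.06 ± 0.36, adjusted p = 0.042 at ZT16-20). In WT liver in darkness 3 of 12 were lower at CT4-8, Alad (-2.06 ± 0.50), Ppox (-1.24 ± 0.31) and Urod (-0.67 ± 0.19), and 0 at CT16-20, and in KO 0 of 11 at both times. Alas1, the rate-limiting first step, rose at ZT16-20 in kidney (0.81 ± 0.20, adjusted p = 0.016) and lung (0.76 ± 0.11, adjusted p = 1.1e-05). Of 23 transcription factors that drive or restrain P450 genes, 3 of 21 were higher and 7 lower in light-dark liver at ZT4-8, against 9.64% of all genes called, and 3 and 3 at ZT16-20, against 20.3%. Ppara, the activator of subfamily 4a, fell at both times (-1.48 ± 0.13 and -1.14 ± 0.13), as did the hepatocyte factors Foxa1 (-2.26 ± 0.35 and -2.15 ± 0.32) and Foxa2 (-2.53 ± 0.31 and -3.03 ± 0.32). The AhR repressor Tiparp rose in liver (3.60 ± 0.49 and 3.95 ± 0.56), in lung (2.45 ± 0.27 and 1.48 ± 0.28) and in KO liver (3.04 ± 0.48 and 2.17 ± 0.48), and Ahr fell in lung (-0.78 ± 0.21 and -0.90 ± 0.22). Nr1i3 fell at CT4-8 in WT liver in darkness (-0.89 ± 0.22) and rose in KO (0.93 ± 0.17), and these responses differed (1.81 ± 0.29, adjusted p = 0.00053). The part of these factors in the P450 results was not tested.

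Some members varied widely between mice of the same group. Cyp2a4, a testosterone 15α-hydroxylase and near copy of Cyp2a5, stood at 7.75, 6.89, 268 and 46.9 CPM in light-dark liver in air at ZT16-20 and 5.02, 15.9, 62.1 and 499 at 6%, and no order of the groups can be read from such a spread. In kidney it stood at 857 ± 92.0 CPM in air at ZT4-8 (SD, n = 4). Cyp26b1, the second retinoic acid hydroxylase, ranged from 7.39 to 68.4 CPM over the 8 liver air libraries and from 6.90 to 126 in lung. This range is on the scale of the joint fit of the tissues. On the scale of the liver fit, used for Cyp2a4 above, the liver range was 4.18 to 39.3 CPM. Of the 65 members, 57 passed the filter on low counts in some comparison. The remaining 8, Cyp11a1, Cyp21a1, Cyp2b13, Cyp2c69, Cyp2d11, Cyp2g1, Cyp2j8 and Cyp3a59, were listed with too few counts to be tested.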

How the data were processed

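RNA was sequenced from whole liver, kidney and lung of 79 mouse samples, with cDNA amplified linearly by in vitro transcription per the labels' protocols. The authors deposited raw counts per gene symbol in 5 tables, 1 per light-dark tissue and 1 per genotype in darkness. Named in the submitters' processing notes are mm10, HTSeq, STAR, cutadapt and bcl2fastq. No version, annotation or strand setting is given in the sources used here. All per-sample columns were used, and reads were not.

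Tests used edgeR 4.0.16 (R 4.3.3): filterByExpr (minimum count 10, minimum total 15), TMM scaling within each fit, the robust quasi-likelihood test, and Benjamini-Hochberg adjustment over all genes tested, called at 0.05. Each table had 1 fit over all its groups. A joint fit served KO minus WT, and another, over all light-dark libraries, the tissues in air. Depth, 1443279 to 6744476 counts, limits precision for members near 10 counts. The tests were tried on simulated data. Members, gene lists and comparisons were chosen with earlier results of these data known. All called members of a comparison are named up to 12, beyond that the 6 highest and 6 lowest, and for oxygen and time comparisons per-library values are given for up to 4 with a mean of at least 10 CPM. Textbook P450s are named whether called or not, and partner genes if called, up to 4 per list. Alternatives were DESeq2 1.42.0, RLE scaling, no filter, only the groups compared, a replicate block, subfamily sums and leaving out each library. Fits without outlying kidney or lung libraries and with library totals alone were added after seeing the data. Promoters are RefSeq's and positions GENCODE vM21's.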

Additional observations from a re-analysis of the deposited data

Results flagged for a closer look

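Values of 6 of 83 tested pairs of a member and a group of 4 held a library farther from the other 3 than Dixon's 95% limit allows, and chance flags about 1 in 20 groups. Cyp2d13 stood at 15.2 CPM in library A of WT liver in darkness at CT4-8 and 6% oxygen, against 27.4 to 28.4 CPM in the other 3. In the same library Cyp2d40 stood at 47.9 CPM, against 94.99 to 104 CPM. Cyp2d13 also stood at 25.8 CPM in library B of light-dark liver in air at ZT16-20, against 37.7 to 38.4 CPM. Cyp4a31 stood at 30.9 CPM in library D of that group, against 14.1 to 16.0 CPM. Cyp4a10 stood at 554 CPM in library A of WT liver in darkness in air at CT16-20, against 788 to 796 CPM, and Cyp4a14 at 195 CPM in library B at 6%, against 49.2 to 67.0 CPM.

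The oxygen response differed between settings by the interaction test for 4 results. Between genotypes at CT4-8, the response in KO minus that in WT was -3.71 for Cyp4a14, -2.77 for Cyp4a32 and 0.68 for Cyp2d26 in log2. Between times in WT liver in darkness, the response at CT16-20 minus that at CT4-8 was -3.65 for Cyp4a14.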

How the results depend on the processing

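Numbers of called members were recomputed for all 27 comparisons with DESeq2, RLE scaling and no filter, for 17 with only the groups compared and for 24 with a replicate block. RLE scaling left each within 1.5 times the main number. With DESeq2 they became 1 for the oxygen response between times in kidney and in lung, 5 for time and 3 for the response between times in WT liver in darkness, 11 at CT4-8 and 10 at CT16-20 for oxygen and 1 for time in KO liver, and for KO minus WT 9 and 6 in air and 5 and 1 for the response. Without the filter on low counts they became 1 for time and 0 for the response between times in WT liver in darkness and 2 for KO minus WT at CT4-8. With only the groups compared they became 1 for kidney at ZT4-8, 1 for time in KO and 1 for KO minus WT at CT4-8. Without both kidney air libraries they became 0 at ZT4-8 and 0 for time. Without the 3 lung air libraries none moved.

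Leaving out 1 library gave ranges of 2 to 4 and 4 to 6 for oxygen and 3 to 6 for time in light-dark liver, 1 to 3 for kidney at ZT4-8, and 0 to 1 for the response between times in kidney and lung. It gave 1 to 4 and 1 to 5 for oxygen, 0 to 4 for time and 0 to 2 for the response between times in WT liver in darkness, 4 to 8 and 4 to 7 for oxygen in KO, 0 to 5 and 1 to 5 for KO minus WT in air, and 1 to 5 for the response at CT4-8. Of 1059 values of named genes in these fits, 889 kept direction and side of the threshold, 170 kept direction only and 0 reversed.

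Replicate letters showed no clear pairing of the samples: same-letter deviations correlated with medians from -0.06 to 0.02, and no table had every pair over 0.1. Single pairs reached 0.235, and with so few libraries per group this check cannot settle whether samples were paired. With letters as a replicate block, kidney at ZT4-8 gave 1 called member, 45 of 57 named values kept their side and 12 did not, among them Cyp2a5 in light-dark liver (-1.37, adjusted p = 0.074). The labels do not say which tissues came from 1 mouse. With libraries of equal time, oxygen level and letter taken as 1 mouse and used as a block, an assumption, the tissue comparisons kept all 36.

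With subfamily sums in place of single genes, 59 of 93 kept their side, 23 kept direction only and 11 reversed. Reversed sums were 0.0144 and 0.16 for Cyp2d26 in kidney, -0.0146 for Cyp2c55 in WT at CT16-20, 0.28 for Cyp2c40, 0.0535 and 0.31 for Cyp2d13 and -0.0473 for Cyp2j9 in KO, 0.27 for Cyp2c67 between genotypes, -4.16 for Cyp4f16 and Cyp4f18 for lung minus liver and 0.34 for Cyp4f14 for lung minus kidney. A sum follows its most counted members by construction. With library totals 35 of 36 tissue values kept their side and Cyp2j9 reversed to 0.40 for kidney minus liver. Depth limits the precision of members near 10 counts.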
